A study of Mus musculus with 28 samples.

Results

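Neurotensin signalling was described through 4 genes: Nts, which encodes the peptide precursor, Ntsr1 and Ntsr2, which encode its G-protein-coupled receptors, and Sort1, which encodes sortilin. The 4 genes were chosen by name from 22919 listed genes. The family had been selected on earlier results of the same tables, in which Ntsr1 stood out for its low level under bicuculline. Values of every member for bicuculline against vehicle or tetrodotoxin are therefore given as a description, without a test.

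Nascent RNA was measured by Bru-seq, in which newly made RNA is labelled with bromouridine, captured with an antibody and sequenced. Mouse forebrain cells of the CD1 strain, taken at embryonic day 18, were grown as mixed cultures of neurons, astrocytes and oligodendrocyte precursor cells. Each biological replicate pooled cortices and hippocampi of several embryos. On day in vitro 14 a lentivirus was added that carried either a control hairpin (shCtrl) or a hairpin that targets Rai1 (shRai1), so that both arms carried a virus. On day 17 the cultures received water as vehicle, 1 µM tetrodotoxin (TTX, a sodium channel blocker that silences firing) or 20 µM bicuculline (BIC, a blocker of GABA-A receptors that raises firing) for 4 hours, with 2 mM bromouridine in the last 20 minutes. The 16 libraries formed 6 groups of shRNA and drug, each with 3 libraries except shCtrl vehicle and shCtrl BIC with 2 each. By the labels shCtrl vehicle held replicates 1 and 2, shCtrl BIC replicates 2 and 3, and every other group replicates 1, 2 and 3. Comparisons that include shCtrl vehicle or shCtrl BIC thus set partly different replicates side by side, and the part of replicate in them was not tested.

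Neurotensin is a short peptide that neurons cut from a larger precursor, store in dense-core vesicles and release. The receptor made from Ntsr1 binds it with high affinity and couples mainly to Gq, which activates phospholipase C. In mouse cortex Ntsr1 is known as a gene of layer 6 corticothalamic neurons. Ntsr2 encodes a receptor of lower affinity and is known to be made by astrocytes in brain. Sortilin is a sorting receptor of the VPS10-domain family, which carries neurotensin and several other ligands between membrane compartments.

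Nts and Ntsr1 had the widest swings of the family between silenced and stimulated cultures, in opposite directions, and the sequences upstream of their start sites are shown for that reason. RefSeq promoter entries on build GRCm38.p6 matched 3 of the 4 members, Nts, Ntsr1 and Ntsr2. The 250 bases before the start lie at chr10:102490419-102490668 on the minus strand for Nts and at chr2:180499726-180499975 on the plus strand for Ntsr1, printed 5′ to 3′ with motif matches in capitals.
Nts: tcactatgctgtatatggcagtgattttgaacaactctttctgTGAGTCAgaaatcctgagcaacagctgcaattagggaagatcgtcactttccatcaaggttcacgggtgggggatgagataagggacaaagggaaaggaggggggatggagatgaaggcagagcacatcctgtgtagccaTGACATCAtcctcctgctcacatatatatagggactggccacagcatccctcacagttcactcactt
Ntsr1: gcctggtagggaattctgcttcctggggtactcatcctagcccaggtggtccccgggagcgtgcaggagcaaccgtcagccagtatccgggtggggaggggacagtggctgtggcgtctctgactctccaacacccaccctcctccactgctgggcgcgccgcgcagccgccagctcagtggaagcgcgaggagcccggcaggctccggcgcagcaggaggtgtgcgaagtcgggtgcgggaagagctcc

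The motifs searched on both strands were TGANTCA, the AP-1 form bound by Fos and Jun proteins, TGACGTCA, the full cyclic-AMP response element, and TGACNTCA, which includes it. They were written down after the Nts sequence had been seen. The Nts window held TGAGTCA from 207 to 201 bases before the start and TGACATCA from 67 to 60 bases before it. Among 32851 promoter windows of the same length, 6.75% held TGANTCA, 1.55% held TGACGTCA and 7.49% held TGACNTCA. The Ntsr1 and Ntsr2 windows held none of these letters. Base composition also differed, with 48% G+C and 2 CpG in the Nts window, 68.4% and 18 CpG in that of Ntsr1, and 55.2% and 4 CpG in that of Ntsr2, against a median of 52.4% G+C over all windows.

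The level of each gene per length was read from the authors' table of FPKM, which gives 1 value pooled over the libraries of a condition, with a lower and an upper bound. No value per library was used, so overlap between single libraries cannot be given, and the bounds are those of the authors. Only the control arm was read here, because the columns named for the knockdown arm did not follow the comparison tables. In that table, with mm9 as the build named in the submitters' processing notes, Nts spans 8.66 kb of chromosome 10 (101944390 to 101953052). Ntsr1 spans 45.0 kb of chromosome 2 (180234681 to 180279684), Ntsr2 spans 6.77 kb of chromosome 12 (16660276 to 16667042) and Sort1 spans 77.5 kb of chromosome 3 (108086982 to 108164437). Values cover the full gene, introns included, and none of the 4 intervals overlaps another listed gene.

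Nts stood at 0.430 FPKM in shCtrl TTX (bounds 0 to 1.45), 5.66 in shCtrl vehicle (2.71 to 8.61) and 18.8 in shCtrl BIC (12.5 to 25.0). The 3 pairs of bounds did not overlap, and the pooled level was 43.7 times as high with BIC as with TTX. The comparison tables give 22.2-fold for the same contrast, and the TTX level has a lower bound of 0. Ntsr1 had the reverse order, with 5.06 FPKM in shCtrl TTX (3.39 to 6.74), 3.43 in shCtrl vehicle (2.14 to 4.72) and 0.867 in shCtrl BIC (0.289 to 1.44). Its bounds in BIC lay below those of vehicle and TTX, which overlapped each other. Ntsr2 stood at 4.26 FPKM in shCtrl TTX (2.06 to 6.46), 2.49 in shCtrl vehicle (0.841 to 4.14) and 1.62 in shCtrl BIC (0.328 to 2.92), with all bounds overlapping. Sort1 was at 24.7 FPKM in shCtrl TTX (19.1 to 30.3), 25.3 in shCtrl vehicle (19.6 to 31.0) and 15.1 in shCtrl BIC (11.6 to 18.7). Sort1 in BIC thus lay below the bounds of the other conditions, and these 2 did not differ beyond them.

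**Figure D1:**
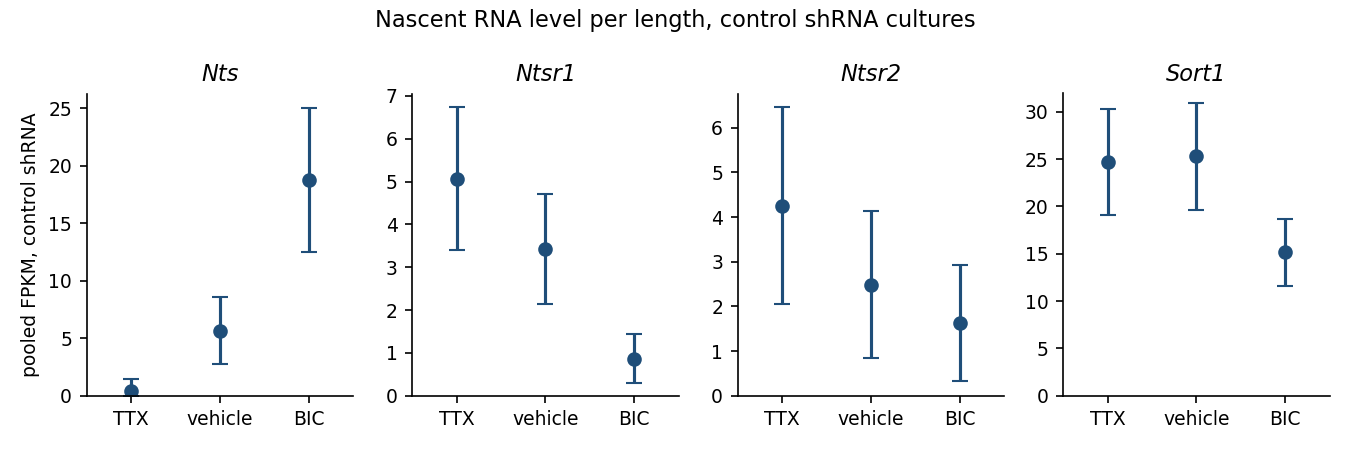
Pooled FPKM of the 4 genes in the control arm (vertical axis, own scale per gene) by treatment (horizontal axis), as points with the authors' lower and upper bounds as bars. Nts is lowest with TTX and highest with BIC at 18.8 FPKM, while Ntsr1 stands at 5.06 FPKM with TTX and 0.867 with BIC.

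The order of the genes changed with activity in these pooled levels. With TTX it was Sort1, Ntsr1, Ntsr2 and Nts from high to low, where the bounds of the 2 receptors overlapped and those of Nts lay below them. In vehicle it was Sort1, Nts, Ntsr1 and Ntsr2, with overlapping bounds between Nts and Ntsr1 and between Ntsr1 and Ntsr2. With BIC the order was Nts, Sort1, Ntsr2 and Ntsr1, and the bounds overlapped within the first pair and within the second pair. The precursor gene had 0.0850 times the FPKM of Ntsr1 with TTX, 1.65 times in vehicle and 21.7 times with BIC.

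The comparisons between groups came from the authors' 7 tables, in which a log2 change of 1 is a doubling and each change has a standard error (SE) from the authors' fit. The mean normalized count over all libraries was 155 for Nts, 187 for Ntsr1, 28.6 for Ntsr2 and 2156 for Sort1, against a median of 107 over the 21192 genes tested. Ntsr2 thus rested on the fewest reads and had wide errors. Rai1 itself checked no label. Between shRai1 and shCtrl the authors' deposited tables gave 0.16 (SE 0.073, adjusted p 0.357), -0.12 (SE 0.064, adjusted p 1.00) and 0.03 (SE 0.073, adjusted p 1.00) for Rai1 in vehicle, TTX and BIC, so its nascent RNA was not called lower. Its interval overlaps Srebf1 and other listed genes, and the arms are named by their labels.

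Under TTX in control cultures, nascent RNA of the ligand gene fell and that of its high-affinity receptor rose. Against vehicle in shCtrl, per the authors' deposited table, Nts had a log2 change of -3.08 (SE 0.38, adjusted p 1.91e-14), an 8.43-fold lower level. This was the sixth-lowest change among the 12333 genes whose mean normalized count reached 50. The pooled FPKM of Nts differed more, 13.2-fold between shCtrl vehicle and shCtrl TTX, where the TTX level has a lower bound of 0. In the TTX comparison Ntsr1 rose by 0.82 (SE 0.17, adjusted p 1.07e-05), or 1.77-fold, per the authors' deposited table. Its pooled FPKM differed less, 1.48-fold, with overlapping bounds. Ntsr2 and Sort1 did not pass, with 0.59 (SE 0.30, adjusted p 0.147) and -0.08 (SE 0.075, adjusted p 0.482) in the authors' deposited table. Thus 2 of 4 members were called at an adjusted p under 0.05, where 19.5% of all tested genes were called. Since all libraries came from bulk cultures, fewer cells of a type and less RNA per cell cannot be told apart.

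The Rai1 shRNA arm gave the same direction for Nts. Against vehicle in shRai1, per the authors' deposited table, Nts changed by -2.34 (SE 0.36, adjusted p 1.64e-09), 5.08-fold lower. Ntsr1 did not pass in that arm, with 0.25 (SE 0.15, adjusted p 0.200) in the authors' deposited table. Sort1 fell there by 0.22 (SE 0.066, adjusted p 0.00406), and Ntsr2 did not pass at 0.36 (SE 0.28, adjusted p 0.373), both per the authors' deposited table. Again 2 of 4 members were called, against 22.3% of tested genes.

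Whether the TTX response differed between arms was tested as an interaction, the change in shRai1 minus that in shCtrl. None of the 4 members passed the Wald test with Benjamini-Hochberg adjustment, where 0.943% of 18241 genes did, and 1 member had an unadjusted p under 0.05. That member was Ntsr1, at -0.57 (SE 0.22, 95% interval -1.01 to -0.14, unadjusted p 0.0102, adjusted p 0.278). The rise of Ntsr1 under TTX, called in control cultures alone, was therefore not shown to differ between arms. The interaction of Nts was 0.73 with a wide 95% interval, -0.29 to 1.76. The intervals ran from -1.05 to 0.58 for Ntsr2 and from -0.34 to 0.06 for Sort1.

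In BIC cultures of both arms the ligand gene had more nascent RNA, and Ntsr1 and Sort1 had less. In the authors' deposited tables for BIC against vehicle, Ntsr1 had a log2 change of -2.63 (SE 0.24) in shCtrl and -2.76 (SE 0.19) in shRai1, which is 6.21-fold and 6.78-fold lower. Only 2 of those 12333 genes had a lower value in shCtrl, and 3 in shRai1. The pooled FPKM of Ntsr1 differed less, 3.96-fold between shCtrl vehicle and shCtrl BIC. In the same authors' deposited tables Sort1 had -0.89 (SE 0.087) in shCtrl and -0.88 (SE 0.068) in shRai1, 1.85-fold and 1.83-fold lower.

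Nts moved the other way. The authors' deposited tables gave a log2 change with BIC of 1.40 (SE 0.37) in shCtrl and 1.83 (SE 0.34) in shRai1, 2.63-fold and 3.54-fold higher. Ntsr2, the astrocyte-type receptor, had 0.08 (SE 0.33) in shCtrl and -0.18 (SE 0.30) in shRai1 by the authors' deposited tables, each smaller than its error. Its pooled FPKM was lower in shCtrl BIC than in shCtrl vehicle, with overlapping bounds, so no direction is given for Ntsr2. Past a 2-fold change were 2 of 4 members in each arm, where 5.24% of genes in shCtrl and 6.08% in shRai1 reached that size. Because the family was noticed through these comparisons, nothing is read from that share.

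**Figure D2:**
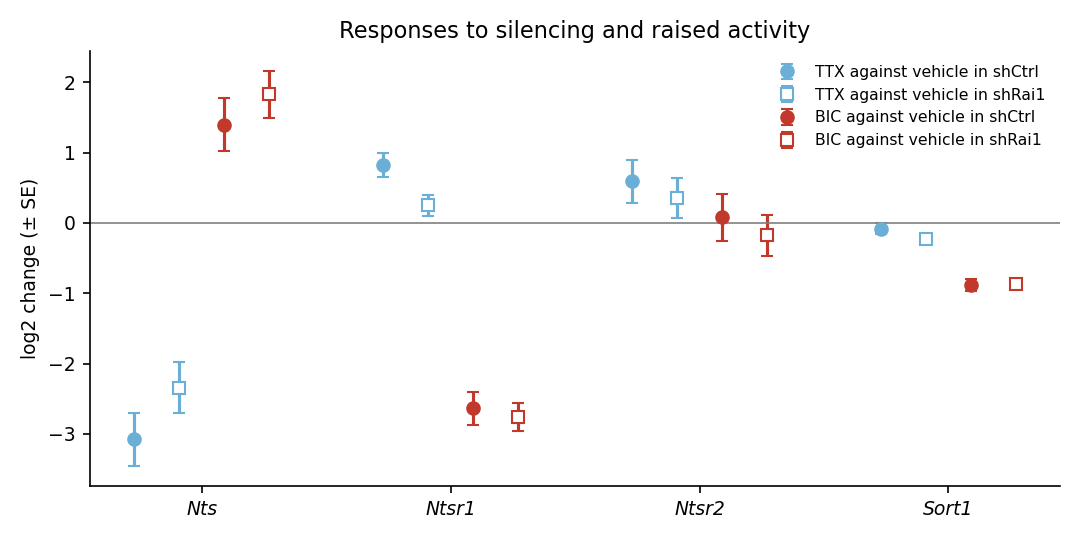
Log2 change (vertical axis) of the 4 genes under TTX (blue) and BIC (red) in shCtrl (filled circles) and shRai1 (open squares), with SE bars, from the authors' tables. Nts lies below 0 with TTX and above 0 with BIC in both arms, and Ntsr1 has the lowest BIC values, -2.63 and -2.76.

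Across the full range from silenced to stimulated cultures, the difference between the BIC and TTX changes was 4.47 for Nts in shCtrl, with an SE of at most 0.53, and 4.17 in shRai1 (at most 0.50). It was -3.45 for Ntsr1 in shCtrl (SE at most 0.29) and -3.01 in shRai1 (at most 0.24). Sort1 had -0.81 (SE at most 0.12) in shCtrl and -0.65 (at most 0.095) in shRai1. Ntsr2 had -0.51 (SE at most 0.45) in shCtrl and -0.54 (at most 0.41) in shRai1. The SE is an upper limit because both changes share the vehicle libraries. Past a 2-fold difference were 2 of 4 members in each arm, against 11.3% of genes in shCtrl and 12% in shRai1, and these comparisons also hold the BIC values.

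The BIC response of shRai1 minus that of shCtrl was 0.43 for Nts (SE 0.51), -0.13 for Ntsr1 (SE 0.31), -0.26 for Ntsr2 (SE 0.44) and 0.01 for Sort1 (SE 0.11). The 95% intervals ran from -0.56 to 1.42 for Nts, from -0.73 to 0.47 for Ntsr1, from -1.13 to 0.61 for Ntsr2 and from -0.20 to 0.23 for Sort1.

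The knockdown contrast was then read within each treatment. In vehicle none of the 4 members was called in the authors' deposited table, where 0.576% of tested genes were, and none had an unadjusted p under 0.05. Nts was nearest to the threshold there, with -0.70 (SE 0.36, 95% interval -1.41 to 0.01, unadjusted p 0.0534, adjusted p 0.461) in the authors' deposited table, whose genes were named here by their mean counts. Ntsr1 had 0.23 (SE 0.17), Ntsr2 -0.02 (SE 0.31) and Sort1 0.03 (SE 0.075) in that authors' deposited table.

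In TTX no member was called in the authors' deposited table, against 0.0283% of genes. There Ntsr1 alone had an unadjusted p under 0.05, with a change of -0.34 (SE 0.14, unadjusted p 0.0175, adjusted p 1.00) in the authors' deposited table. Nts had 0.03 (SE 0.38), with a 95% interval from -0.71 to 0.77, so that a change of 1.5-fold either way lies inside it. In BIC no member was called by DESeq2 in the authors' deposited table and none had an unadjusted p under 0.05, against 0.00944% of genes called. The values there were -0.27 for Nts (SE 0.36), 0.10 for Ntsr1 (SE 0.25), -0.28 for Ntsr2 (SE 0.32) and 0.05 for Sort1 (SE 0.079) in the authors' deposited table.

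**Figure D3:**
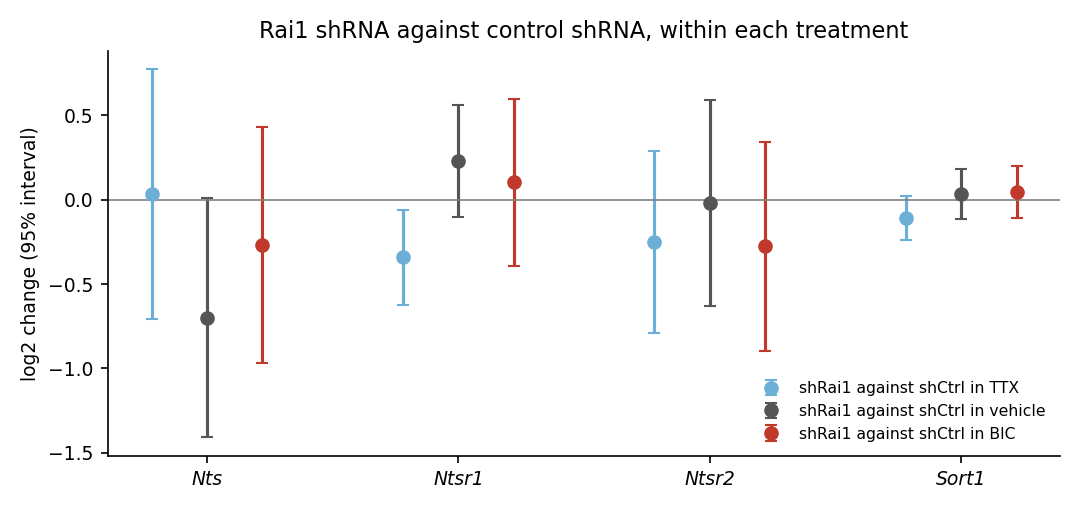
Log2 change of shRai1 against shCtrl (vertical axis) for the 4 genes within TTX (blue), vehicle (grey) and BIC (red), with 95% intervals as bars. Sort1 has the narrowest intervals and Nts in vehicle the lowest value, -0.70, with an interval that reaches 0.01.

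The 2 receptors were set beside 36 other neuropeptide receptors. In the authors' deposited table for BIC in shCtrl 9 of the 36 were higher and 5 lower at an adjusted p under 0.05, while 13.7% of tested genes were higher and 13.4% lower. For shRai1 the authors' deposited table had 14 of the 36 higher and 5 lower, where 17.6% of tested genes were called in each direction. The list in shCtrl had a median log2 change of 0.25, against -0.0010 over all tested genes. Its lowest values in shCtrl were those of Oprl1, the nociceptin receptor, at -1.78 (SE 0.25), and Oprd1, the delta opioid receptor, at -1.54 (SE 0.18), in the authors' deposited table. In shRai1 the lowest of the 36 was Sstr3, a somatostatin receptor named after its values were seen, at -1.89 (SE 0.24) in the authors' deposited table. The highest values of the list in shCtrl were those of Tacr3, the neurokinin B receptor, at 2.65 (SE 0.17), and Sstr1, a somatostatin receptor, at 1.76 (SE 0.17), in the authors' deposited table. Under TTX the authors' deposited table for shCtrl listed 6 of the 36 as higher and 5 as lower, beside 8.59% and 10.9% of tested genes. Oprl1 and Oprd1 rose with TTX by 1.26 (SE 0.18) and 0.90 (SE 0.14), and Sstr1 fell by 1.43 (SE 0.19), in the authors' deposited table.

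**Figure D4:**
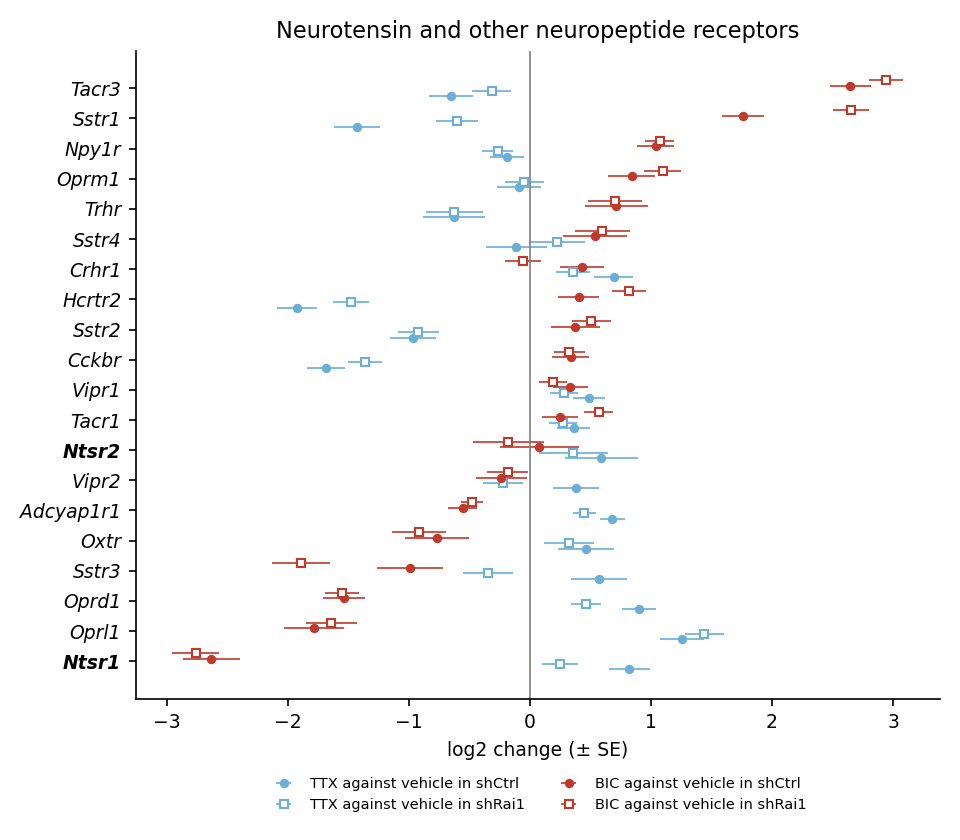
Log2 change with SE bars (horizontal axis) of Ntsr1, Ntsr2 and the other neuropeptide receptors whose mean normalized count reached 50 (vertical axis, ordered by BIC in shCtrl), for TTX (blue) and BIC (red) in shCtrl (filled) and shRai1 (open). Ntsr1 has the lowest BIC values, -2.63 and -2.76, and Ntsr2, with larger errors, lies near 0 with BIC.

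Of 5 genes of precursor processing, 3 were higher and 1 lower with BIC in shCtrl (median 0.68) in the authors' deposited table, beside 13.7% and 13.4% of tested genes. With TTX 0 were higher and 2 lower (median -0.20) in the authors' deposited table, beside 8.59% and 10.9%. Pcsk1, which encodes the prohormone convertase PC1/3, rose by 2.14 (SE 0.14) with BIC and fell by 2.09 (SE 0.14) with TTX, in the authors' deposited tables. Pcsk2, for PC2, was not called with either drug, at -0.10 (SE 0.12) with BIC and -0.03 (SE 0.10) with TTX in the authors' deposited tables, and its interval overlaps other listed genes. Pcsk5 rose with BIC by 1.03 (SE 0.23), and Scg5, which encodes the PC2 chaperone 7B2, fell by 0.45 (SE 0.083), in the authors' deposited table.

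Among 4 genes of peptidases that cleave neurotensin, 3 were lower with BIC in shCtrl and 0 higher (median -0.88) in the authors' deposited table, beside 13.4% and 13.7% of tested genes. Only 2 were lower in shRai1, where 17.6% of tested genes were, since Nln had -0.06 (SE 0.068) in the authors' deposited table. In shCtrl, by the authors' deposited table, Ace, for angiotensin-converting enzyme, fell by 2.33 (SE 0.28) and Mme, for neprilysin, fell by 1.53 (SE 0.24). Nln, for neurolysin, fell by 0.23 (SE 0.087), and Thop1, for thimet oligopeptidase, had 0.11 (SE 0.15) and was not called, in the same authors' deposited table. With TTX, Ace and Thop1 rose by 0.75 (SE 0.21) and 0.52 (SE 0.14), and Mme fell by 0.60 (SE 0.20), in the authors' deposited table for shCtrl. Among tested genes 8.59% were higher and 10.9% lower there. In shRai1 with TTX, the authors' deposited table had 1 of the 4 higher and 1 lower, beside 10% and 12.3% of tested genes. The lower gene was Nln at -0.28 (SE 0.068), and Thop1 and Mme were not called in that arm. The interval of Ace overlaps that of Gm11651, so its value is uncertain where reads were shared.

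Of 14 genes for Gq proteins, phospholipase C beta, IP3 receptors and protein kinase C, 2 were higher and 3 lower with BIC in shCtrl (median -0.07) in the authors' deposited table, against 13.7% and 13.4% of tested genes. Plcb1 rose by 1.06 (SE 0.14) and Prkca by 0.44 (SE 0.10), while Prkcd fell by 0.48 (SE 0.18), in the authors' deposited table. The intervals of Plcb1 and Prkca overlap other listed genes. With TTX 1 was higher and 3 lower (median 0.05) in the authors' deposited table for shCtrl, against 8.59% and 10.9% of tested genes. Nothing is read from these counts about the list.

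The other 4 VPS10-domain genes, which encode sorting receptors related to sortilin, were called in both directions with BIC: the authors' deposited table for shCtrl had 2 higher and 1 lower, beside 13.7% and 13.4% of tested genes. Sorcs1 rose by 1.91 (SE 0.14) and Sorcs3 by 1.75 (SE 0.20), Sorl1 fell by 0.34 (SE 0.092) and Sorcs2 had 0.02 (SE 0.10), per the authors' deposited table. With BIC in shRai1 the authors' deposited table had 2 higher and 2 lower, beside 17.6% of tested genes in each direction. With TTX the authors' deposited tables had 0 higher and 2 lower in shCtrl, and 0 higher and 3 lower in shRai1. Tested genes were lower with TTX in 10.9% and 12.3% of cases in these arms. Of 7 genes for sortilin ligands and the co-receptors Ngfr and Ntrk2, 4 were higher and 1 lower with BIC (median 0.56) in the authors' deposited table for shCtrl. The shares of tested genes were 13.7% and 13.4%. With TTX 1 was higher and 4 lower (median -0.51) in the authors' deposited table, beside 8.59% and 10.9% of tested genes. Bdnf, whose precursor protein binds sortilin, rose by 1.41 (SE 0.15) with BIC, while Grn, for progranulin, fell by 0.79 (SE 0.24), in the authors' deposited table. Ngfr, the p75 neurotrophin receptor, had -0.64 (SE 0.28) and did not pass in the authors' deposited table. For the knockdown, the authors' deposited tables called 0 genes of these 6 lists in any treatment, where the called share of all tested genes was 0.576% (vehicle), 0.0283% (TTX) and 0.00944% (BIC), so nothing is read from that count.

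Markers of the cells that make each receptor were read beside these values. Of 8 layer 6 corticothalamic markers, 2 were higher and 1 lower with BIC in shCtrl (median -0.14) in the authors' deposited table, beside 13.7% and 13.4% of tested genes. None was at 0 FPKM in a control group. Their summed level was 56.4 FPKM in TTX, 61.8 in vehicle and 60.5 in BIC. Foxp2 fell by 1.06 (SE 0.12) and Tbr1 rose by 0.55 (SE 0.16) with BIC in the authors' deposited table. With TTX 1 of the 8 was higher and 1 lower in shCtrl (median 0.03), beside 8.59% and 10.9% of tested genes. In shRai1 with TTX 1 was higher and 2 lower (median 0.16), beside 10% and 12.3%, both per the authors' deposited tables. The part of layer 6 cells in the values of Ntsr1 was not tested.

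Of 15 astrocyte markers, 1 was higher and 6 lower with BIC, and 0 higher and 7 lower with TTX, in the authors' deposited tables for shCtrl (medians -0.17 and -0.25). Among tested genes 13.7% and 13.4% were higher and lower with BIC, and 8.59% and 10.9% with TTX. In shRai1 the astrocyte list had 2 higher and 1 lower with TTX (median 0.08) in the authors' deposited table, beside 10% and 12.3% of tested genes. The summed level of the astrocyte markers in shCtrl was 512 FPKM in TTX, 623 in vehicle and 474 in BIC, and none was at 0. Ntsr2 had a value above 0 with TTX in both arms, called in neither, and the part of astrocyte markers in its values was not tested. Neuron markers summed to 644 FPKM in TTX, 744 in vehicle and 1019 in BIC, with 8 of 12 higher and 3 lower under BIC in the authors' deposited table for shCtrl, beside 13.7% and 13.4% of tested genes. Under TTX the authors' deposited tables had 1 of the 12 higher and 5 lower in shCtrl, and 0 higher and 4 lower in shRai1, beside 10.9% of tested genes lower in shCtrl and 12.3% in shRai1. Their part in the values of Nts was not tested. Of 7 oligodendrocyte-lineage markers, 1 was higher and 4 lower under TTX in shCtrl (median -0.50), and 4 were higher and 0 lower in shRai1 (median 0.29), in the authors' deposited tables. The shares of tested genes were 8.59% higher and 10.9% lower in shCtrl, and 10% and 12.3% in shRai1. The part of these markers in the TTX values of the members, and in their difference between arms, was not tested. Under BIC the authors' deposited tables had 0 of the 7 higher and 2 lower in shCtrl (median -0.25), and 0 higher and 1 lower in shRai1, beside 13.4% and 17.6% of tested genes lower. Of 7 microglia markers, 2 were higher and 0 lower under BIC in shCtrl (median 0.31), and 1 was higher and 0 lower in shRai1 (median 0.37), in the authors' deposited tables. Tested genes were higher in 13.7% and 17.6% of cases in these arms. The microglia markers summed to 22.9 FPKM in TTX, 22.0 in vehicle and 31.7 in BIC of shCtrl, none at 0. Under TTX 0 of 7 were called in either arm in the authors' deposited tables, beside 19.5% of tested genes in shCtrl and 22.3% in shRai1. Only 1 of the 7 had a mean count of at least 50, and some had no adjusted p under TTX and could not be called. The part of both lists in the BIC values of the members was not tested. The authors' deposited table for the knockdown in vehicle called 4 of 7 oligodendrocyte-lineage and 3 of 15 astrocyte markers lower, beside 0.491% of tested genes. It called 1 of 12 neuron markers higher, Rbfox3, named after its values were seen, at 0.24 (SE 0.068, adjusted p 0.0494) in the authors' deposited table, beside 0.0849% of tested genes higher. In TTX the authors' deposited table called 1 of the 7 oligodendrocyte-lineage markers higher and 0 lower (median 0.38), beside 0.0142% of tested genes higher. In BIC it called 1 lower and 0 higher (median -0.41), beside 0.00472% of tested genes lower, in the authors' deposited table. The called gene in both was Pdgfra, the platelet-derived growth factor receptor of oligodendrocyte precursors, named after its values were seen, at 0.50 (SE 0.11) in TTX and -0.90 (SE 0.13) in BIC in the authors' deposited tables.

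The genes whose pattern was most like that of a member were found by distance over 5 log2 changes against shCtrl vehicle, one for each other group, among 12333 genes. For Ntsr1 the nearest were Ace (distance 0.40), Slc24a4 (0.57), Prima1 (0.78), Slc6a7 (0.79) and Ppp1r1b (0.81), where the median gene lay 3.76 away. Ppp1r1b encodes DARPP-32, a phosphatase inhibitor, and Slc6a7 a proline transporter, and the interval of Ppp1r1b overlaps another listed gene. For Nts the nearest were Nptx2 (0.89), Pthlh (0.94), Rnd3 (1.00), Arc (1.01) and Atp12a (1.04), with the median gene 4.76 away. Nptx2 encodes a neuronal pentraxin, Pthlh the parathyroid hormone-like peptide and Arc a postsynaptic protein induced by activity. Within a distance of 1 lay 3 genes from Nts, 10 from Ntsr1, 3286 from Sort1 and 6711 from Ntsr2. The distance includes the BIC changes, on which Ntsr1 was selected as an extreme gene, so few neighbours of Ntsr1 follow from that choice. Nothing is read from these numbers for any member.

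**Figure D5:**
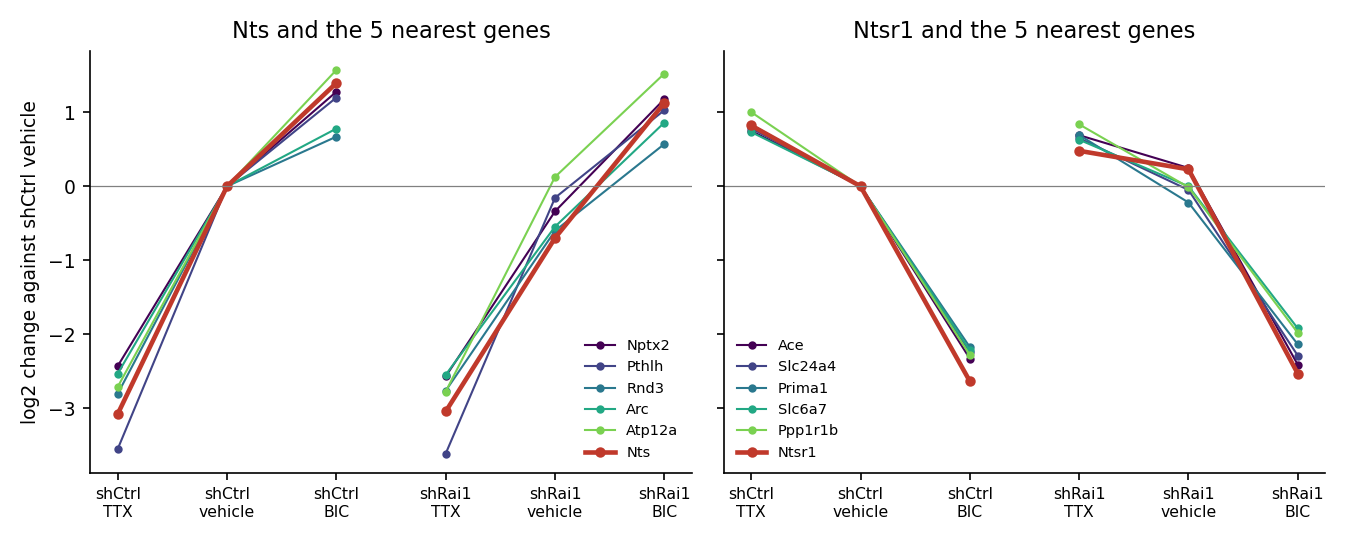
Log2 change against shCtrl vehicle (vertical axis) in the 6 groups (horizontal axis) for Nts (left, thick line) and Ntsr1 (right, thick line) with the 5 nearest genes of each as thin lines. Nts reaches -3.08 with TTX and 1.40 with BIC in shCtrl, and Ntsr1 reaches 0.82 and -2.63.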

How the data were processed

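The 16 Bru-seq libraries were analysed through summaries, and 12 ChIP-seq samples were left aside. The submitters' processing notes name mm9, TopHat2 2.1.0 and Bowtie2 2.2.6, and the authors deposited DESeq2 results. Per the file headers, the authors' 7 comparison tables hold a mean normalized count (a signal averaged over libraries), a log2 change with its standard error, a Wald score, a p-value and its adjusted form. Per the file headers, 1 further table holds FPKM pooled per condition with bounds. Library depths are unknown. Genes are not named in the vehicle knockdown table, and 20107 of its 21192 tested rows were named by a unique mean count. Log2 changes among the TTX and vehicle groups of both arms closed within 1e-09. Those with BIC were not checked in this way.

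Calls use the authors' adjusted p under 0.05. Interactions, differences between BIC and TTX, and Euclidean distances were computed from deposited log2 changes in Python 3.11.15 with scipy 1.17.1. The interaction was a Wald test (two-sided), with Benjamini-Hochberg adjustment over genes whose mean reached 0.1 FPKM, and was tested on simulated data. Members, lists, motifs and tests were chosen with earlier results of these data known. Named genes were the members, the 5 nearest to each, and of each list up to 2 at either end of the BIC changes in shCtrl with a mean count of at least 50; 2 genes under this rule are not reported here. Biological replicates were separate embryo pools per the labels. Alternatives were other adjustment sets, thresholds of 0.01 and 0.1, centring on the median gene, and ratios of pooled FPKM with a pseudocount of 0.1 or 1.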

Additional observations from a re-analysis of the deposited data

Results flagged for a closer look

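In the columns of the FPKM table named for the knockdown arm, which entered the comparisons only through the mean FPKM used to choose genes for the interaction, Nts was listed at 13.7 FPKM under the name of TTX (authors' bounds 8.46 to 19.0), above 0.430 in shCtrl TTX (0 to 1.45). Ntsr1 was listed at 3.16 FPKM under the name of BIC (1.93 to 4.40), above 0.867 in shCtrl BIC (0.289 to 1.44). In the same columns Nts lay below shCtrl at 0.510 FPKM under the name of vehicle (5.66 in shCtrl) and at 3.30 under BIC (18.8). Ntsr1 lay below at 1.31 FPKM under the name of TTX (5.06 in shCtrl TTX), and the bounds of these pairs did not overlap. Between the same arms the authors' deposited tables gave log2 changes of 0.03 (SE 0.38) for Nts in TTX and 0.10 (SE 0.25) for Ntsr1 in BIC, so these columns were not assigned to a treatment.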

How the results depend on the processing

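The number of members called or past a 2-fold change was the same in all 35 alternatives run for counts. For the TTX and knockdown comparisons these were adjustment over all genes or over genes with a mean count of at least 50, thresholds of 0.01 and 0.1, and centring on the median gene. The TTX interaction had the same ones without adjustment over all genes. BIC against vehicle in shCtrl had centring and pooled FPKM ratios, and BIC in shRai1 and BIC against TTX had centring alone. For single members 133 values kept their side of the threshold or moved by less than 1 SE, and 9 values of pooled FPKM ratios moved further. With a pseudocount of 1 the BIC ratio of Ntsr1 was -1.25 and the TTX ratio of Nts -2.22, and Ntsr2 with BIC was -0.41 in place of 0.08. The TTX ratio of Ntsr1 in shCtrl was 0.55 with a pseudocount of 0.1 and 0.45 with 1, in place of 0.82. Over the alternatives the adjusted p of the Ntsr1 interaction ranged from 0.198 to 0.291. No paired analysis was possible because the tables hold no value per library, so the replicate block and leaving out each replicate were not run. The interaction for BIC has no test and no alternative. The counts of Ntsr2 limit what can be detected for it.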

Other observations

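The columns of the FPKM table can be set beside the comparison tables over many genes. Of 371 genes called with at least a 2-fold change under TTX in shCtrl, 365 (98.4%) had the same direction in the control columns. Of 316 such genes in shRai1, 9 (2.85%) had the same direction between the columns named for the knockdown with TTX and with vehicle. For BIC the numbers were 812 of 835 (97.2%) in the control columns and 676 of 950 (71.2%) in the knockdown columns.

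Sort1 and Ntsr2 also had near neighbours in pattern. For Sort1 these were B3glct (distance 0.11), Zbtb4 (0.11), Fgf11 (0.11), Gm14634 (0.14) and Ephb3 (0.15). For Ntsr2 they were Txnl4b (0.18), Slc16a9 (0.18), Cnpy2 (0.19), Ano5 (0.20) and Snw1 (0.21), and the interval of Snw1 overlaps other listed genes.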
